A study of Homo sapiens with 16 samples.

Results

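The genes described here are 10 members of the BCL2 family, followed in MCF-10A cells over 45 h with the HER2 kinase inhibitor CP724714. They are BCL2L11, BMF, BBC3, PMAIP1, BIK, BID, BAX, BAK1, MCL1 and BCL2L1, taken by gene symbol, and every probe with one of these symbols was kept as a separate measurement. The array table holds 20589 probes for 18190 symbols, and 14 of the probes carry the 10 symbols. Of these 14, 9 were above background on at least 3 of the 16 arrays and entered the tests, which were made on 11957 probes in all. BCL2L11 had no tested probe, and those of BMF and PMAIP1 were above background on 7 and 6 arrays only.

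MCF-10A is a nontransformed human breast epithelial cell line, grown here in Ham's F-12 medium with bovine serum albumin and without serum, with insulin, epidermal growth factor (EGF), hydrocortisone, transferrin, T3, selenium and ethanolamine. CP724714, a small molecule that blocks the HER2 kinase, was added at 1 µM to all cultures but the untreated one of 0 h, RNA was taken from parallel cultures every 3 h from 0 to 45 h, and each of the 16 time points was measured on 1 Illumina human Ref8v2 array. No time point had a replicate, the medium was also changed when the inhibitor was added, and cultures kept without it were not followed, so the effects of the inhibitor, of fresh medium and of time in culture cannot be told apart. A change in all cells and a change in the share of cells with a transcript cannot be told apart either, since RNA came from whole cultures. Insulin and EGF were present in all cultures. The labels name no chip, and if the 16 arrays lay in order on chips of 8, a difference between chips would fall between 21 and 24 h and could not be told apart from time, so a comparison without that step was also made.

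Array medians ran from 210.4 to 254 in intensity, and between 10325 and 10889 of the 20589 probes (50.1% to 52.9%) had a detection p under 0.05, which is called above background below. Levels are log2 intensities after background correction and quantile normalization. Since there was 1 array for each time point, 4 consecutive time points stood together as a window (0 to 9 h, 12 to 21 h, 24 to 33 h and 36 to 45 h). Changes are given with their standard error (SE), and the adjusted p-values from limma measure a change against the spread within windows, or around a smooth curve of time, and not against the spread between cultures of the same time point. Probes for the epithelial genes KRT5, KRT8, KRT17, KRT18, CDH1, ITGB4 and EPCAM (TACSTD1 in the file) were above background on all 16 arrays, KRT14 was above it on 1 array and ITGA6 on 0. Of the markers of other cell types, COL1A1, COL1A2, COL3A1, PDGFRB, VWF, CDH5, CD3E, ADIPOQ and PLIN were above background on 0 arrays, DCN and PTPRC on at most 5, PECAM1 on 15 and CD68 on 16. PECAM1 was higher at 36 to 45 h than at 0 to 9 h by a log2 change of 0.84 (limma adjusted p = 0.0003) and at 12 to 21 h by 0.87 (limma adjusted p = 0.0003), and CD68 was higher by 0.68 at 36 to 45 h (limma adjusted p = 0.0027). Of 11 tested probes for epithelial genes, 7 changed along the smooth curve of time (54.7% of all tested probes). At 36 to 45 h against 0 to 9 h, 4 of them were higher and 1 was lower (16.2% and 15% of all). Whether the rise of PECAM1 and CD68 came from the epithelial cells or from other cells was not tested.

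Proteins of the BCL2 family decide whether the outer mitochondrial membrane is opened to release cytochrome c, the step that commits a cell to apoptosis by the intrinsic route. BAX and BAK1 form the pores, MCL1 and BCL2L1 (BCL-XL) hold them in check, and the BH3-only proteins activate the pore formers or occupy the pro-survival proteins. In mammary epithelial cells, growth factor signals through EGFR and HER2 restrain several BH3-only proteins, and BCL2L11 (BIM) and BMF are known for their part in the death of cells that lose matrix attachment and in the clearing of the lumen of acini.

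Among the BH3-only genes, BMF was the member with the largest change: it was high before treatment, at background for most of the series and high again from 36 h. The deposited intensity of its probe ILMN_16249 was 491 at 0 h and then 229, 256 and 245 at 3, 6 and 9 h. From 12 to 30 h it lay between 199 and 231, beside a negative control level that ran from 166 to 199 over the 16 arrays with an SD of 35.4 to 44.0. It was 285 at 33 h and then 720.1, 612, 819 and 616 at 36, 39, 42 and 45 h. The probe was above background at 0, 6 and 33 h and on all 4 arrays from 36 h, and each of these last 4 arrays lay above the 0 h array and above every other array.

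**Figure D1:**
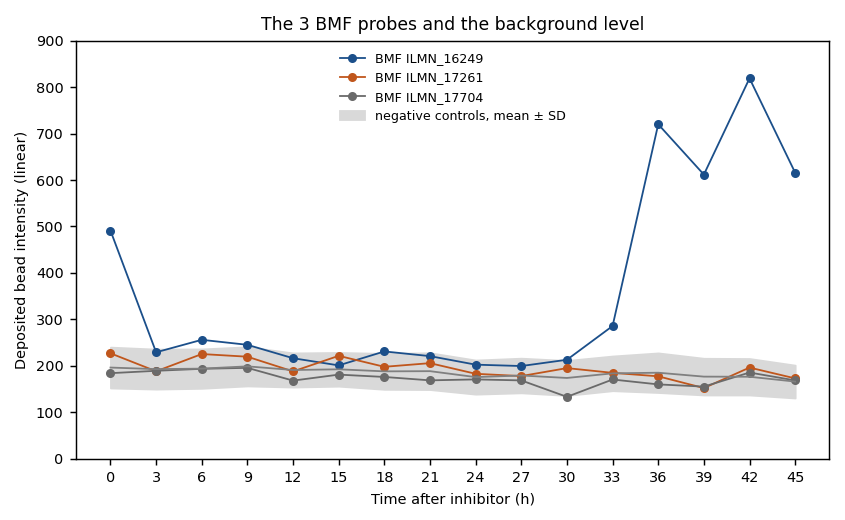
Deposited bead intensity on a linear scale (vertical axis) of the 3 BMF probes at each time after addition of the inhibitor (horizontal axis, h), with 1 array for each point. The grey line and band are the mean and SD of the negative controls inferred for each array. ILMN_16249 stands at 491 at 0 h and between 612 and 819 from 36 h, while the other probes stay at the level of the controls.

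On the log2 scale BMF was 8.38, 5.98, 6.29 and 6.12 at 0, 3, 6 and 9 h. Its values were 5.83, 5.64, 6.07 and 5.94 from 12 to 21 h and 5.89, 5.79, 6.03 and 6.85 from 24 to 33 h. They were 8.95, 8.89, 9.36 and 9.03 from 36 to 45 h. The late window thus did not overlap with any of the 3 earlier ones, and the step from 33 to 36 h alone was 4.30-fold. Against 24 to 33 h, the level at 36 to 45 h was at least 6.77-fold higher, and against 0 to 9 h at least 4.94-fold higher, where an array without detected signal counts with its lowest detected probe or, if this is dimmer, with the measured level. Both changes passed the test, with log2 estimates of 2.91 (SE 0.38, limma adjusted p = 1.3e-05) and 2.36 (SE 0.38, limma adjusted p = 0.000147). The course over time also passed (limma adjusted p = 1e-05 for a spline of time), but not as a straight line (limma adjusted p = 0.0519). With each array left out in turn, the estimate against 0 to 9 h ran from 2.13 to 2.93 and its adjusted p was at most 0.000853. The other 2 BMF probes, ILMN_17261 and ILMN_17704, were above background on 0 of the 16 arrays, so the change of BMF rests on 1 of 3 probes.

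BCL2L11, which encodes BIM, a BH3-only protein able to bind every pro-survival member, could not be followed. Its probe ILMN_16692 was above background on 2 arrays only, at 30 and 33 h, with log2 levels from 5.53 to 6.12, and its probe ILMN_14809 on 0 arrays, with levels from 5.20 to 5.97. Neither was tested, and no fold is given. The signal of both probes was too close to the negative controls to show a change of BCL2L11 in either direction.

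BCL2L11 and BMF are both known targets of FOXO factors, so the promoters listed for them in RefSeq (GRCh38.p14) were searched for the FOXO core GTAAACA on both strands (TGTTTAC on the other). RefSeq's table held 14 promoters for 8 of the 10 genes, without an entry for BIK and MCL1, and the 250 bases before each start site were read. The motif was in 2.98% of all 35116 promoters of this length. The BCL2L11 window (chr2:111120664-111120913, plus strand) holds it 223 bases before the start site, in capitals here. The BMF window shown (chr15:40108880-40109129, minus strand) is the upstream of 2 start sites, and the letters were in neither BMF window. Nor were they in the windows read for BBC3, PMAIP1, BID, BAX, BAK1 and BCL2L1. A match is a stretch of letters and not a measured site, and the table does not say which start site these cells use.
BCL2L11: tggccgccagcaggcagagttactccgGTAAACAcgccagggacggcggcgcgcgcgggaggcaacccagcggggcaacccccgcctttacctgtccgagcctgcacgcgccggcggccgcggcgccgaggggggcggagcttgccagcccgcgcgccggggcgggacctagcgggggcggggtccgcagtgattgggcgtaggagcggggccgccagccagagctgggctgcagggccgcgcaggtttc
BMF: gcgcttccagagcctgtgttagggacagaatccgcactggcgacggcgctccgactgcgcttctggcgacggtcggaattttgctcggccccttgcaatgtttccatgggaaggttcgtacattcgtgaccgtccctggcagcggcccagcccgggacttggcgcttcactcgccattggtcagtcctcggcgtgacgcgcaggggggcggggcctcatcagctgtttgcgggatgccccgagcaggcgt

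BBC3 encodes PUMA, a BH3-only protein induced by p53 and by FOXO factors. Its probe ILMN_6992 was above background on all arrays, with log2 levels of 9.73, 9.43, 9.45 and 9.36 from 0 to 9 h and 9.14, 8.98, 9.19 and 9.00 from 12 to 21 h. The levels were 8.82, 9.19, 9.04 and 9.05 from 24 to 33 h and 9.35, 9.55, 9.68 and 9.52 from 36 to 45 h. BBC3 was thus high at both ends of the series and low between, and neither middle window overlapped with the late one. It fell by 0.41 on the log2 scale from 0 to 9 h to 12 to 21 h (SE 0.11, limma adjusted p = 0.0086) and rose by 0.50 from 24 to 33 h to 36 to 45 h (SE 0.11, limma adjusted p = 0.0016). The early fall was not called under median scaling of the arrays (log2 change of -0.26, limma adjusted p = 0.0772). The late window ended where the series began, with a log2 change of 0.03 against 0 to 9 h (SE 0.11, limma adjusted p = 0.85), so a straight line in time missed BBC3 (limma adjusted p = 0.975) and the spline called it (limma adjusted p = 0.00047).

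PMAIP1 encodes NOXA, a BH3-only protein that binds MCL1 by preference. The log2 level of its probe ILMN_25637 was 7.30 at 0 h and between 5.63 and 6.38 on the 15 later arrays, all of which were at least 1.7-fold below the untreated array. Its highest level was at least 2.34-fold above its lowest. The probe was above background at 0, 21, 24, 27, 33 and 45 h, so most of the series was spent near the detection limit. A high value of a single untreated array was thus all that set PMAIP1 apart, and no window comparison called it. Its course was not called by the spline of 3 degrees of freedom (limma adjusted p = 0.18) and was called by one of 5 (limma adjusted p = 0.0184).

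BIK, a BH3-only protein of the endoplasmic reticulum, went down through the series. Its probe ILMN_3777 stood at log2 levels of 9.67, 9.37, 9.65 and 9.14 from 0 to 9 h and at 8.85, 8.90, 8.88 and 8.75 from 12 to 21 h. It stood at 8.90, 8.81, 8.50 and 8.51 from 24 to 33 h and at 8.40, 7.99, 8.47 and 8.32 from 36 to 45 h. No array of the late window reached the lowest array of any earlier window. BIK fell by 1.16 on the log2 scale from the first to the last window (SE 0.14, limma adjusted p = 9.1e-06), and its highest level, at 0 h, was 3.20-fold above its lowest, at 39 h. Part of this had happened by 12 to 21 h (log2 change of -0.61, SE 0.14, limma adjusted p = 0.0032). The last step, from 24 to 33 h to 36 to 45 h, had a log2 change of -0.39 (SE 0.14, limma adjusted p = 0.036). That call was lost without the 24, 27, 39 or 45 h array, with adjusted p-values from limma of 0.119, 0.101, 0.134 and 0.0602, and without a filter on dim probes (limma adjusted p = 0.0545).

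BID links death receptors to mitochondria after it is cut by caspase-8, and it was the steadiest of the members above background on all arrays. The log2 levels of its probe ILMN_23535 lay between 9.30 at 36 h and 9.87 at 3 h, a range of 1.49-fold. No comparison called it, and its time course was not called (limma adjusted p = 0.44). At 36 to 45 h it was 9.43 ± 0.11 (SD, n = 4 time points) after 9.70 ± 0.11 at 24 to 33 h, a log2 difference of -0.27 (limma adjusted p = 0.067), which was called without the 9 h array (limma adjusted p = 0.0458) and under median scaling (log2 difference of -0.37, limma adjusted p = 0.0113). The other BID probe, ILMN_23641, was above background on 0 arrays.

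**Figure D2:**
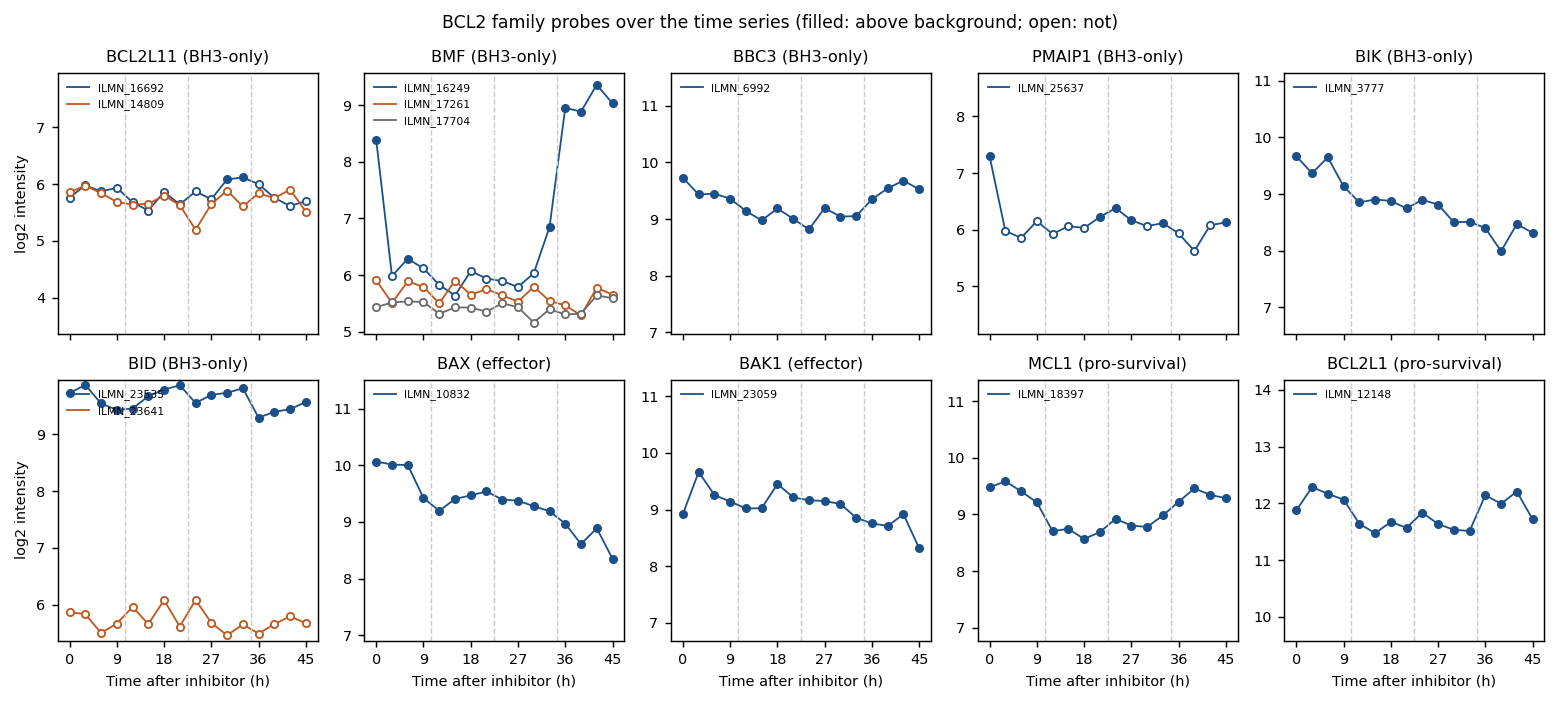
Log2 intensity after normalization (vertical axis) of the 14 probes of the 10 genes at each time after addition of the inhibitor (horizontal axis, h), with 1 array for each point. Filled points are above background, open points are not, and dashed lines separate the 4 windows. All panels span the same log2 range, so that the rise of BMF at 36 h stands beside the falls of BIK and BAX and the dip of BBC3, MCL1 and BCL2L1 between 12 and 33 h.

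Of the pore formers, BAX fell over the series. Its probe ILMN_10832 had log2 levels of 10.07, 10.01, 10.01 and 9.42 from 0 to 9 h and of 9.20, 9.41, 9.47 and 9.54 from 12 to 21 h. The levels were 9.40, 9.38, 9.28 and 9.19 from 24 to 33 h and 8.97, 8.61, 8.89 and 8.35 from 36 to 45 h. The fall came in steps, first between 6 and 9 h (log2 step of -0.58) and again after 33 h, and the late window lay below every earlier array. From the first to the last window BAX fell by 1.17 on the log2 scale (SE 0.15, limma adjusted p = 1.7e-05), and its level at 0 h was 3.28-fold that at 45 h. The late part, from 24 to 33 h to 36 to 45 h, was a log2 change of -0.60 (SE 0.15, limma adjusted p = 0.0039). The early part, to 12 to 21 h, was -0.47 (SE 0.15, limma adjusted p = 0.024) in windows that overlapped. This early call was lost under median scaling (log2 change of -0.32, limma adjusted p = 0.117) and without the 0, 3, 6, 12 or 15 h array, with adjusted p-values from limma of 0.0561, 0.0682, 0.0597, 0.0785 and 0.0502.

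The promoter of BAX is shown because it holds more copies of a short palindrome than the other members' promoters that were read. The E-box CACGTG, which reads the same on both strands and is bound by basic helix-loop-helix factors such as MYC, was in 6.34% of the 35116 promoters of this length. The BAX window (chr19:48954625-48954874, plus strand) holds it 4 times, at 138, 93, 45 and 14 bases before the start site, in capitals here. The BBC3 window holds 1 copy, 232 bases before the start site, 2 of the 5 BID windows overlap and hold the same copy, and the windows of BCL2L11, BMF, PMAIP1, BAK1 and BCL2L1 do not have these letters. Binding to these letters was not measured, and how many of all promoters hold 4 copies was not counted.
BAX: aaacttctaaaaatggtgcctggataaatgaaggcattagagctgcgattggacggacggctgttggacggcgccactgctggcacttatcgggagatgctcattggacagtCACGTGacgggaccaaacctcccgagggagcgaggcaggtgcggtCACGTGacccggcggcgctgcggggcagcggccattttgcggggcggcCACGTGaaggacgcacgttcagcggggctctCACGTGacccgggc

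BAK1, the other pore former, was lowest at the end of the series. Its probe ILMN_23059 had log2 levels of 8.92, 9.66, 9.26 and 9.14 from 0 to 9 h and of 8.75, 8.71, 8.92 and 8.31 from 36 to 45 h. The 8 values between ran from 8.85 at 33 h to 9.45 at 18 h. The untreated array lay lower than the 3 that followed it and was level with the 42 h array, so the first and last windows met at 8.92. BAK1 fell by 0.57 on the log2 scale between these windows (SE 0.16, limma adjusted p = 0.010), less than the estimate for BAX, although the difference between the 2 genes was not tested. This call was not made under median scaling (log2 change of -0.42, limma adjusted p = 0.0593), with only the 8 arrays compared in the fit (limma adjusted p = 0.0514) or without the step between 21 and 24 h (log2 change of -0.46, limma adjusted p = 0.195). Its time course was called (limma adjusted p = 0.0081), but not without the 45 h array (limma adjusted p = 0.106). Against 24 to 33 h, the late level differed by -0.39 (limma adjusted p = 0.059), which was called without the 0, 3, 33 or 42 h array, with adjusted p-values from limma of 0.0353, 0.0317, 0.0431 and 0.0402, and also under median scaling (limma adjusted p = 0.0263) and among the probes detected on all arrays (limma adjusted p = 0.0495).

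Both pro-survival genes dipped in the middle of the series and came back. MCL1, a protein of short half-life that holds BAK1 and binds NOXA, had log2 levels of 9.48, 9.59, 9.41 and 9.21 from 0 to 9 h and of 8.71, 8.75, 8.57 and 8.69 from 12 to 21 h at ILMN_18397. The levels were 8.92, 8.81, 8.78 and 8.98 from 24 to 33 h and 9.22, 9.46, 9.35 and 9.29 from 36 to 45 h. Both middle windows lay wholly below the first and the last. MCL1 fell by 0.74 on the log2 scale to 12 to 21 h (SE 0.10, limma adjusted p = 4.4e-05), with a step of -0.51 between 9 and 12 h, and rose by 0.46 from 24 to 33 h to the last window (SE 0.10, limma adjusted p = 0.0014). The last and first windows differed by -0.09 (SE 0.10, limma adjusted p = 0.51). The spline called its course (limma adjusted p = 0.00019) and a straight line did not (limma adjusted p = 0.923).

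BCL2L1, whose main product BCL-XL guards the mitochondrial membrane against BAX and BAK1, was read by ILMN_12148. Its log2 levels were 11.87, 12.29, 12.17 and 12.07 from 0 to 9 h and 11.64, 11.47, 11.67 and 11.57 from 12 to 21 h. They were 11.84, 11.63, 11.53 and 11.51 from 24 to 33 h and 12.14, 11.99, 12.21 and 11.72 from 36 to 45 h. The window of 12 to 21 h lay wholly below the first, while the late rise was carried by 36, 39 and 42 h, and the 45 h array was again below that of 24 h. BCL2L1 fell by 0.51 to 12 to 21 h (SE 0.11, limma adjusted p = 0.0018) and rose by 0.39 after 24 to 33 h (SE 0.11, limma adjusted p = 0.0085), the latter not under median scaling (log2 change of 0.18, limma adjusted p = 0.236). Its course over all arrays was not called (limma adjusted p = 0.079), but was without the 0 or the 45 h array, with adjusted p-values from limma of 0.00774 and 0.0125. The MCL1 and BCL2L1 values are each combined over several probes, as the form of their detection p-values shows, and probes for different splice forms cannot be told apart in them.

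Counted over the family, 6 of the 9 tested probes had a time-dependent course (BMF, BBC3, BIK, BAX, BAK1 and MCL1), where 54.7% of all tested probes did, a share near that of the family. At 36 to 45 h against 0 to 9 h, 1 member was higher (BMF) beside 16.2% of all probes, and 3 were lower (BIK, BAX and BAK1) beside 15%. At 12 to 21 h against 0 to 9 h, 0 members were higher, where 15.1% of all probes were, and 5 were lower (BBC3, BIK, BAX, MCL1 and BCL2L1), where 14.4% were. In the same limma fit, 6 of the 9 probes had an unadjusted p under 0.05 in that comparison. Of all 11957 tested probes, 4726 did. By median scaling, cyclic loess or without background correction, 0 members were called higher. Median scaling called 3 lower in place of 5, without BAX and BBC3, and of all tested probes 2805 higher and 1030 lower in place of 1808 and 1722.

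Between 12 to 21 h and 24 to 33 h no change of the family was found. By limma 0 members were called higher and 0 lower, at a background of 0% and 0.0251%. An unadjusted p under 0.05 was found for 0 members and for 585 of all 11957 tested probes. Under median scaling or cyclic loess, 0 members were called. Among the members above background on all arrays, the largest log2 difference between these windows was the 0.19 of MCL1 (limma adjusted p = 0.9995). From 24 to 33 h to 36 to 45 h, 4 members were higher (BMF, BBC3, MCL1 and BCL2L1) beside 19.3% of all probes, and 2 were lower (BIK and BAX) beside 18.7%. Pro-apoptotic and pro-survival genes were thus among the late rises, and a BH3-only gene and a pore former among the late falls. Under median scaling 3 members were higher and 4 lower here, as BCL2L1 was lost and BAK1 and BID were called lower, and of all tested probes 1719 were higher and 2933 lower in place of 2310 and 2234. These comparisons share arrays and are not independent of each other.

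**Figure D3:**
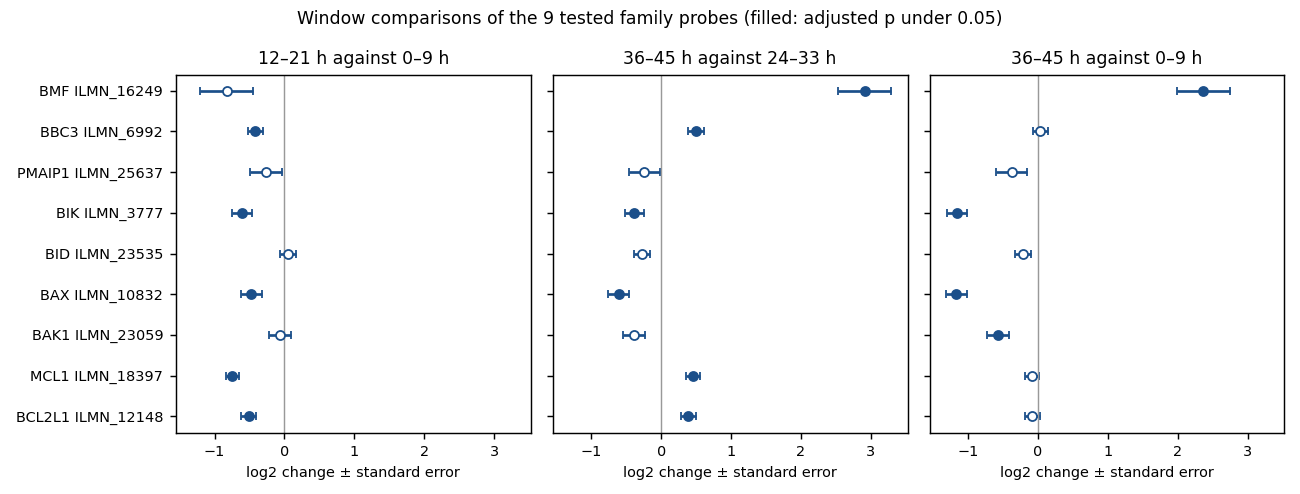
Log2 change with its standard error (horizontal axis) of the 9 tested probes (vertical axis) in 3 comparisons of windows of 4 time points, where filled points have an adjusted p under 0.05 from limma. The 5 filled points of 12 to 21 h against 0 to 9 h all lie on the left, and BMF stands apart on the right in both comparisons of 36 to 45 h. BBC3, MCL1 and BCL2L1 move left, then right, and end near 0.

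Median log2 changes of the 9 member probes were -0.22 at 36 to 45 h against 0 to 9 h and -0.47 at 12 to 21 h against 0 to 9 h. Those of all tested probes were -0.02 and -0.00064. At 36 to 45 h against 24 to 33 h the median of the members was -0.24, which is the value of the PMAIP1 probe near background, and that of all probes was -0.0022. Against the untreated array alone and without a test, 6 members (BMF, BBC3, PMAIP1, BIK, BAX and MCL1) differed at least 1.7-fold at 1 or more later times, where 43.7% of all tested probes did. BBC3 did so at 1 of the 15 later times, MCL1 at 3, BAX at 7, BIK and BMF at 12 and PMAIP1 at 15. These counts depend on the background correction: without it, 4 members in place of 6 and 2184 of all tested probes in place of 5227 differed so much.

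The earliest window held the untreated culture and the first hours with inhibitor, so 6 to 9 h was also set against 0 to 3 h in pairs of time points. By limma 0 members were called higher and 0 lower, where 13.2% and 11.5% of all probes were. An unadjusted p under 0.05 was found for 2 of the 9 and for 4291 of all 11957 tested probes. A fit of 5 groups in place of 8 pairs called 0 members as well, and of all tested probes 1620 higher and 1331 lower. The pair of 0 and 3 h held very different values of BMF (8.38 and 5.98) and PMAIP1 (7.30 and 5.98). Without the 3 h array, BMF and PMAIP1 were called lower at 6 to 9 h (limma adjusted p = 8.5e-06 and 0.00024). Without the 6 h array, BAX was called lower (limma adjusted p = 0.036). In each of these fits an arm is a single array, the untreated one or that of 9 h, and the spread comes from the other pairs of time points. No fold is given, as PMAIP1 was not above background at 6 and 9 h, nor BMF at 9 h. BMF and PMAIP1 thus stood near background by 3 h, whereas BAX was 10.07, 10.01 and 10.01 until 6 h and BAK1 was 8.92 at 0 h and 9.66 at 3 h, values of single arrays that were not tested.

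The probes most like each time-dependent member were sought among 8636 probes above background on all arrays, by Pearson's r over the 16 arrays. For BMF these were CEBPD (r = 0.98), CBX7 (0.97) and FLJ90586 (0.96). CEBPD, a transcription factor of the C/EBP family, was at 12.50 at 0 h, between 11.63 and 12.12 from 3 to 33 h and between 12.91 and 13.14 from 36 h, the same high, low and high sequence. The closest to MCL1 were DDAH2, COQ4 and KALRN (all r = 0.97) and to BBC3 were MC1R (0.94), BRI3 (0.93) and ORC2L (0.93). BIK was matched by NOV, ASB9 and AKR1A1 (all r = 0.94), BAX by GMPPA (0.95), MGC19604 (0.94) and HERC6 (0.94), and BAK1, at lower values, by RCE1 (0.92), PLOD3 (0.89) and TBC1D10B (0.88). The highest of so many correlations over 16 arrays can be high by chance, and the points share the order of time. How high they would be without a shared change was not measured.

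Of 17 other family members and BH3-like genes, 16 were on the array with 22 probes, of which 16 probes were tested. A time-dependent course was found for 9 of the 16, beside the 54.7% of all probes, and at 36 to 45 h 5 were higher and 4 lower than at 0 to 9 h (16.2% and 15% of all probes). Against 24 to 33 h, 7 were higher and 5 lower (19.3% and 18.7% of all), and the median log2 change was 0.12. HRK, a further BH3-only gene, was 7.90, 8.17, 8.29 and 8.44 from 0 to 9 h, between 7.42 and 8.11 from 12 to 33 h and 9.27, 9.35, 9.18 and 9.73 from 36 h. The late values of HRK lay above all 12 earlier ones, a rise of 1.59 on the log2 scale from 24 to 33 h (SE 0.16, limma adjusted p = 9.7e-07) and 1.18 from 0 to 9 h (SE 0.16, limma adjusted p = 2.7e-05). Before that HRK had fallen by 0.47 from 0 to 9 h to 12 to 21 h (limma adjusted p = 0.032), and its lowest value of the first window was that of 0 h.

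BNIPL, a gene related to BNIP2, rose most by estimate in this list, from 6.75 ± 0.18 (SD, n = 4 time points) at 0 to 9 h to 9.26 ± 0.10 at 36 to 45 h (log2 change of 2.52, SE 0.17, limma adjusted p = 2.6e-08). Its other probe was above background on 0 arrays. BCL2L12, an atypical family member, fell late at both of its probes, by 1.44 (limma adjusted p = 7.9e-05) and 0.83 (limma adjusted p = 5.9e-06) on the log2 scale from 24 to 33 h. BNIP1, a membrane protein with a BH3-like stretch, fell by 0.69 from the first to the last window (SE 0.13, limma adjusted p = 0.0007). The 2 probes of BCL2 itself differed at 36 to 45 h against 24 to 33 h, with a fall of ILMN_3868 (log2 change of -0.64, limma adjusted p = 0.0020) and a log2 change of 0.14 at ILMN_3287 (limma adjusted p = 0.45), which was above background on 3 arrays. These values of BCL2 were chosen after they were seen.

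Downstream of the pores, 23 of 26 listed genes of the apoptosome, the caspases and their inhibitors gave 28 tested probes. Of these, 18 were time-dependent (54.7% of all probes), 1 was higher and 6 were lower at 36 to 45 h against 0 to 9 h (16.2% and 15% of all), and the median log2 change was -0.15. Under median scaling 4 were called in this comparison in place of 7, and without the step between 21 and 24 h 3 were. CYCS, which encodes the cytochrome c that the pores release, fell by 0.94 (SE 0.12, limma adjusted p = 1.5e-05), from 9.10 ± 0.18 (SD, n = 4 time points) to 8.16 ± 0.10. Its 4 late values, from 8.04 to 8.26, lay below all 12 earlier ones, with a log2 change of -0.70 from 24 to 33 h (limma adjusted p = 0.00019).

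DFFA, the inhibitor of the caspase-activated nuclease, had a log2 change of -0.46 at ILMN_7552 (limma adjusted p = 0.027). That call was lost under median scaling, without a filter on dim probes and without the 6, 36 or 39 h array, with adjusted p-values from limma of 0.0803, 0.0534 and 0.0817. It was not made for 42 to 45 h against 0 to 3 h either (limma adjusted p = 0.339). In the comparison without the step between 21 and 24 h the call was also lost, and the change was 0.02. That comparison leaves out a log2 change of -0.47 from 12 to 21 h to 24 to 33 h, while DFFA itself was 7.24 at 21 h and 7.38 at 24 h. The other DFFA probe, ILMN_6993, had a log2 change of -0.28 in the same comparison (limma adjusted p = 0.26). BIRC3, an inhibitor of apoptosis, was at 10.89 and 10.67 at 0 and 3 h and between 8.25 and 9.39 later. Its call by the spline (limma adjusted p = 0.0062) was lost without the 0 h array (limma adjusted p = 0.251) or the 3 h array (limma adjusted p = 0.0564). At 6 to 9 h against 0 to 3 h BIRC3 fell by 2.39 (SE 0.16, limma adjusted p = 1.3e-07), and at 42 to 45 h against 0 to 3 h it was lower by a log2 change of -1.61 (limma adjusted p = 3.1e-06). BIRC3 was not called at 36 to 45 h against 0 to 9 h (log2 change of -0.44, limma adjusted p = 0.45). Its value is combined over probes and had a detection p under 0.05 on 3 arrays only, which does not make it dim. Of 287 combined values with a mean log2 level over 9, 129 lacked such a p on at least 1 array, against 0 of 4744 single probes as bright, so the detection p misses bright combined values.

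Of 18 transcription factors known to act on these genes, 16 probes were tested, 11 were time-dependent (54.7% of all probes), 3 were higher and 2 lower at 36 to 45 h against 0 to 9 h (16.2% and 15% of all), and 8 were called in that comparison without the 0 h array, while the median log2 change was 0.06. FOXO4 (MLLT7 in the file), a FOXO factor held in the cytoplasm by AKT, was 9.12, 9.20, 9.03 and 8.54 from 0 to 9 h, between 7.90 and 8.87 from 12 to 33 h and 10.13, 10.22, 10.24 and 10.01 from 36 h. The late window of FOXO4 lay above all earlier arrays and was 1.69 higher on the log2 scale than 24 to 33 h (SE 0.17, limma adjusted p = 9.7e-07). FOXO3 (FOXO3A in the file) was not tested, as its combined value ILMN_15283 had a detection p under 0.05 on 1 array only and its other probe on 0. The log2 means of that combined value over the windows were 10.48, 10.29, 10.24 and 10.98. TP63 (TP73L in the file), the p53 relative of basal epithelial cells, was above background on 0 of the first 4 arrays and at least 2.55-fold higher at 36 to 45 h (limma adjusted p = 6.7e-07). E2F1, which drives S phase genes and can induce several BH3-only genes, went the other way, from 8.95 ± 0.17 (SD, n = 4 time points) at 24 to 33 h to 7.08 ± 0.28 (log2 change of -1.87, SE 0.20, limma adjusted p = 1.9e-06). SNAI2, known as a repressor of BBC3, fell by 1.17 to 12 to 21 h (SE 0.14, limma adjusted p = 1.5e-05) and stayed near that level, with 9.21 ± 0.27 at 12 to 21 h and 9.26 ± 0.06 at 36 to 45 h.

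Protein partners and stability factors of the family, such as the 14-3-3 proteins that hold BAD in the cytoplasm, gave 22 tested probes from 20 of 21 listed genes. Of these, 9 were time-dependent (54.7% of all probes), 4 were higher and 6 lower at 36 to 45 h against 0 to 9 h (16.2% and 15% of all), with a median log2 change of -0.08. These 10 calls became 4 without the 3 h or the 6 h array and 6 without the 9 h or the 45 h array. They also became 4 with only the 8 arrays compared in the fit, 4 for 42 to 45 h against 0 to 3 h and 3 without the step between 21 and 24 h. SFN, the epithelial 14-3-3 sigma, fell by 1.14 (SE 0.13, limma adjusted p = 6.1e-06), and YWHAB, 14-3-3 beta, fell by 1.31 at ILMN_17127 (SE 0.12, limma adjusted p = 4.6e-07). The other YWHAB probe, ILMN_9634, had a log2 change of -0.06 (limma adjusted p = 0.63) in this comparison and of -0.30 against 24 to 33 h (limma adjusted p = 0.0090), and at 12 to 21 h against 0 to 9 h the 2 probes were called in opposite directions, with -0.57 at ILMN_17127 (limma adjusted p = 0.0016) and 0.31 at ILMN_9634 (limma adjusted p = 0.011).

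Of the same list, BAG1, a cochaperone that binds BCL2, was higher at 36 to 45 h than at 0 to 9 h by 0.79 (limma adjusted p = 0.018) and YWHAE, 14-3-3 epsilon, lower by an estimate of -0.65 (limma adjusted p = 0.045). The call of BAG1 was lost without the 3, 6 or 39 h array, with adjusted p-values from limma of 0.0529, 0.0682 and 0.0638, and that of YWHAE without the 3, 6, 9, 12, 15, 24, 27, 30, 33, 36 or 45 h array, with adjusted p-values from limma of 0.0518 to 0.166 and a log2 change of -0.36 without the 45 h array. BAG1 was also not called with only the 8 arrays compared (limma adjusted p = 0.0726) or for 42 to 45 h against 0 to 3 h (log2 change of 0.40, limma adjusted p = 0.381). Without the step between 21 and 24 h it was not called either (log2 change of 0.66, limma adjusted p = 0.224). YWHAE was also not called under median scaling, cyclic loess, without a filter on dim probes or without an intensity trend (limma adjusted p = 0.119, 0.0591, 0.0578 and 0.0505). Nor was it called with only the 8 arrays compared (limma adjusted p = 0.109) or without the step between 21 and 24 h (log2 change of -0.86, limma adjusted p = 0.0976).

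Other p53 targets gave 21 tested probes from 20 genes, and 14 were time-dependent (54.7% of all probes), 4 were higher and 5 lower at 36 to 45 h against 0 to 9 h (16.2% and 15% of all). Without the step between 21 and 24 h, 5 probes were called in place of 9. At 12 to 21 h against 0 to 9 h, 0 were higher and 7 were lower by limma (15.1% and 14.4% of all), with a median log2 change of -0.15. DDB2, a DNA repair gene, was 9.47, 9.17, 8.34 and 7.87 from 0 to 9 h and at most 8.01 from then on (log2 change of -1.24 at 36 to 45 h, SE 0.24, limma adjusted p = 0.00094). FDXR, a mitochondrial reductase, fell by 0.62 from 0 to 9 h to 36 to 45 h (SE 0.11, limma adjusted p = 0.0004), of which 0.53 was seen by 12 to 21 h (limma adjusted p = 0.0018), and was 12.31 at 0 h and 11.31 at 12 h. AEN (ISG20L1 in the file), an apoptosis-enhancing nuclease, fell by 0.74 from 0 to 9 h to 36 to 45 h (SE 0.14, limma adjusted p = 0.00078). Its change from 24 to 33 h to 36 to 45 h was -0.69 (limma adjusted p = 0.00097). Within the first window AEN was 12.06, 11.55, 11.14 and 11.48. At 6 to 9 h against 0 to 3 h its change was -0.49 (limma adjusted p = 0.033), and it was 11.68 at 12 h. TP53INP1 was 10.78 and 10.33 at 0 and 3 h, 8.42 and 7.89 at 6 and 9 h and between 9.90 and 10.15 from 36 h. Its rise of 1.45 from 24 to 33 h passed (SE 0.44, limma adjusted p = 0.014), while the change from 0 to 9 h was 0.65 (limma adjusted p = 0.27) and was called without the 0 h array (1.13, limma adjusted p = 0.020).

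Other FOXO targets gave 20 tested probes from 18 genes. Of these, 16 were time-dependent (54.7% of all probes), and at 36 to 45 h against 24 to 33 h 12 were higher and 0 lower by limma (19.3% and 18.7% of all), with a median log2 change of 0.80 beside -0.0022 over all tested probes. Against 0 to 9 h, 10 were higher and 2 lower (16.2% and 15% of all), with a median of 0.67. The list was written with earlier results of these data known, so these counts and medians are not an independent test of FOXO targets. TNFSF10, the death ligand TRAIL, which acts through receptors upstream of BID, was at least 8.92-fold higher at 36 to 45 h than at 24 to 33 h (limma adjusted p = 1.4e-07), with levels of 5.38, 5.58, 6.24 and 7.10 and then 9.47, 9.53, 9.43 and 9.81. Its probe was above background on 6 arrays, at 30 and 33 h and on the 4 from 36 h. It thus entered the tests only through its late arrays, and its p-value is not independent of that filter. PDK4 was at least 6.49-fold higher at 36 to 45 h than at 24 to 33 h (limma adjusted p = 3.3e-05), and it stood at 8.20 already at 33 h. BCL6, a repressor of transcription, was 11.03 at 0 h, between 8.64 and 8.97 from 3 to 9 h, 9.85, 9.77, 10.10 and 10.44 from 12 to 21 h, 9.44, 9.58, 10.39 and 11.02 from 24 to 33 h and between 11.64 and 11.89 from 36 h, so that it was back at its 0 h level by 33 h.

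The 2 FBXO32 probes both rose late, and their changes at 36 to 45 h against the window of 0 to 9 h had opposite signs. ILMN_3809, a value combined over probes, was 12.51 at 0 h and 7.91 at 9 h and stood between 11.84 and 12.25 from 36 h, with log2 changes at 36 to 45 h of 3.28 against 24 to 33 h (limma adjusted p = 0.00076) and 2.15 against 0 to 9 h (limma adjusted p = 0.019). The latter was not called without the 6 or 9 h array (limma adjusted p = 0.0683 and 0.0584) or with only the 8 arrays compared (limma adjusted p = 0.088). Nor was it called for 42 to 45 h against 0 to 3 h (log2 change of 0.53, limma adjusted p = 0.32) or without the step between 21 and 24 h (log2 change of 1.74, limma adjusted p = 0.243). ILMN_20035 changed by 1.08 (limma adjusted p = 0.00076) and -1.59 (limma adjusted p = 3e-05). Whether the changes of these FOXO targets and of BMF are connected was not tested.

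**Figure D4:**
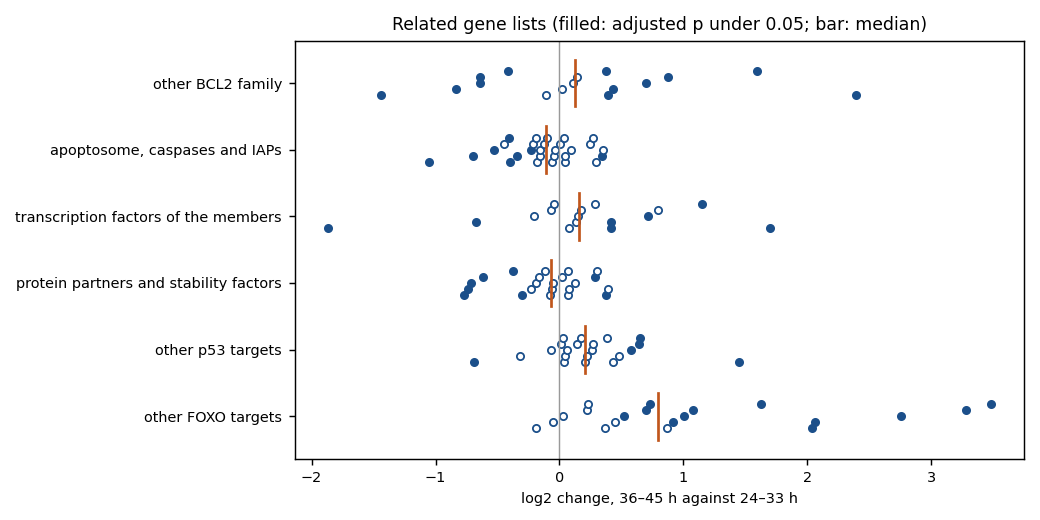
Log2 change at 36 to 45 h against 24 to 33 h (horizontal axis) of each tested probe of 6 lists of related genes (vertical axis), where filled points have an adjusted p under 0.05 from limma and the bar is the median of the list. The bar of the other FOXO targets stands at 0.80, and the other bars stand between -0.11 and 0.20. All 6 lists were written with earlier results of these data known.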

How the data were processed

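RNA of MCF-10A cells was measured on 16 arrays, 1 for each time point, so each time point was a group of its own and 4 consecutive ones formed a window. The authors deposited bead intensity values on a linear scale that had not been normalized, with detection p-value columns beside them. Their methods name quantile normalization. Of the 20589 rows, 1497 combine several probes. Intensities were corrected with normexp (negative controls inferred from the detection p-values of the 19092 single probes, offset 16), then brought to the same quantiles and to log2 (R 4.3.3, limma 3.58.1); the offset compresses changes of dim probes. Tests were made for probes detected at p under 0.05 on 3 or more arrays, with limma (intensity trend) on windows, on pairs of time points and on a natural spline (3 degrees of freedom), and p-values were adjusted by Benjamini-Hochberg over all 11957. Calls were made under 0.05. The steps were tested on simulated data. Figures were drawn with matplotlib 3.10.9.

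Named were all probes of the 10 members, for each called member the 3 most similar probes, and from each of 6 lists (120 genes) up to 4 genes with the largest change from the first to the last window among those past that test or the spline. BCL2, FOXO3 and the markers of cell types were named besides. Results of 2 genes of the lists and markers are not reported. The members and lists were chosen with earlier results of these data known. Symbols are those of the file, and all 10 are current in RefSeq (GRCh38.p14), from which promoters were taken. Which genome build the array was annotated on is not given in the sources used here. Alternatives tried were other background corrections, scalings, filters, variance priors, curves, references and sets of arrays, and each array left out in turn.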

Additional observations from a re-analysis of the deposited data

How the results depend on the processing

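Over the 9 tested member probes, 844 results with an array left out and 406 under other settings stayed on the same side of the threshold. Leaving out each array in turn ended 10 calls and added 10, and the other settings ended 10 and added 4, with no called member in the opposite direction under any of them. The cause was not tested for any of these.

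Median scaling gave 3 member probes changed at 12 to 21 h against 0 to 9 h in place of 5, and a straight line in time gave 3 time-dependent member probes in place of 6. With each array left out, the number of members called ran from 6 to 7 for time dependence, 4 to 4 for 36 to 45 h against 0 to 9 h, 4 to 5 for 12 to 21 h against 0 to 9 h, 0 to 0 for 24 to 33 h against 12 to 21 h, 5 to 7 for 36 to 45 h against 24 to 33 h and 0 to 2 for 6 to 9 h against 0 to 3 h. The log2 change of DFFA at 36 to 45 h against 0 to 9 h turned from -0.46 to 0.0150 without the step between 21 and 24 h. That comparison leaves out its change of -0.47 from 12 to 21 h to 24 to 33 h.

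Among all tested probes, a straight line gave 1950 time-dependent probes in place of 6535. At 36 to 45 h against 0 to 9 h, 3729 were called, 2474 with only the 8 arrays compared in the fit and 1617 without the step between 21 and 24 h. The last comparison has a larger standard error, so its lower count does not by itself show a difference between chips. At 24 to 33 h against 12 to 21 h, 3 were called, 11 under median scaling and 1 without an intensity trend. With an array left out this count ran from 1 to 6 and moved by more than 1.5 times without the 9, 12, 15, 18, 24, 27, 30 or 45 h array. At 6 to 9 h against 0 to 3 h, 2956 were called, and 1693 without the 9 h array. Probes at least 1.7-fold from 0 h numbered 5227, and 2184 without background correction.

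In the comparisons of windows, median scaling moved the median change of all probes by less than 0.1 but changed the balance of directions. It gave 2793 higher and 1029 lower in place of 1932 and 1797 at 36 to 45 h against 0 to 9 h. At 12 to 21 h against 0 to 9 h it gave 2805 and 1030 in place of 1808 and 1722. At 36 to 45 h against 24 to 33 h it gave 1719 and 2933 in place of 2310 and 2234. For the pairs of 6 to 9 h against 0 to 3 h it gave 1794 and 1007 in place of 1584 and 1372. No paired analysis was possible because each time point has a single replicate. Signal over background limits BCL2L11, PMAIP1 and the low phase of BMF.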
